A study of Mus musculus with 4 samples.

Results

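Myogenic cells taken from mouse hind-limb muscle 5 days after injury were compared with cells taken 2 days after it. The RNA of each time point went onto 1 Affymetrix 430A array. These are 2 of the 4 arrays of the series, chosen by their labelled day after injury. The arrays of days 3 and 14 serve to place the levels, and all 4 arrays set the scaling and the floor. Days 3 and 14 were deposited in another set of records than days 2 and 5. A difference between these pairs of days cannot be told apart from one between the sets. All groups were C57BL/6 mice aged 8 to 12 weeks whose hind limb had been injected with cardiotoxin, which comes from snake venom, kills fibres and sets off regeneration; none of the 4 arrays is of uninjured muscle. The cells were isolated directly from muscle and were never cultured, the labels give the antibody SM/C-2.6 for their purification, while neither further markers of the sort nor the number of animals behind an array are given in the sources used here. No day has a replicate array. There is therefore no p-value, and the call of a gene as higher or lower means only a difference of at least 2-fold between 2 arrays.

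Satellite cells are the stem cells of skeletal muscle and lie quiet under the basement membrane of the fibre. After injury they enter the cell cycle as myoblasts under Myf5 and Myod1, leave it as Myog is switched on, and fuse into new fibres that first make embryonic and slow isoforms of the contractile proteins. Some return to quiescence and restore the stem cell pool, a fate tied to Pax7 and to Notch signalling.

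Signals are MAS5 signals in arbitrary units after scaling to a common trimmed mean. Low signals were raised to a floor of 43.0, the pooled median of the scaled values, so where 1 day lies at the floor the ratio is a lower bound, written as at least N-fold. Of 12394 named genes, 7445 were above the floor on day 2 or day 5 and count as measured. On day 5, 1471 of them were at least 2-fold higher than on day 2 (19.8%) and 848 at least 2-fold lower (11.4%), 31.1% in all. Of the higher genes, 469 were at the floor on day 2, and of the lower genes, 48 were at the floor on day 5. The larger changes ran mostly upward: 144 genes were at least 8-fold higher and 9 at least 8-fold lower. Of the 144, 54 were at the floor on day 2, and of the 9, 2 were at the floor on day 5.

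**Figure D1:**
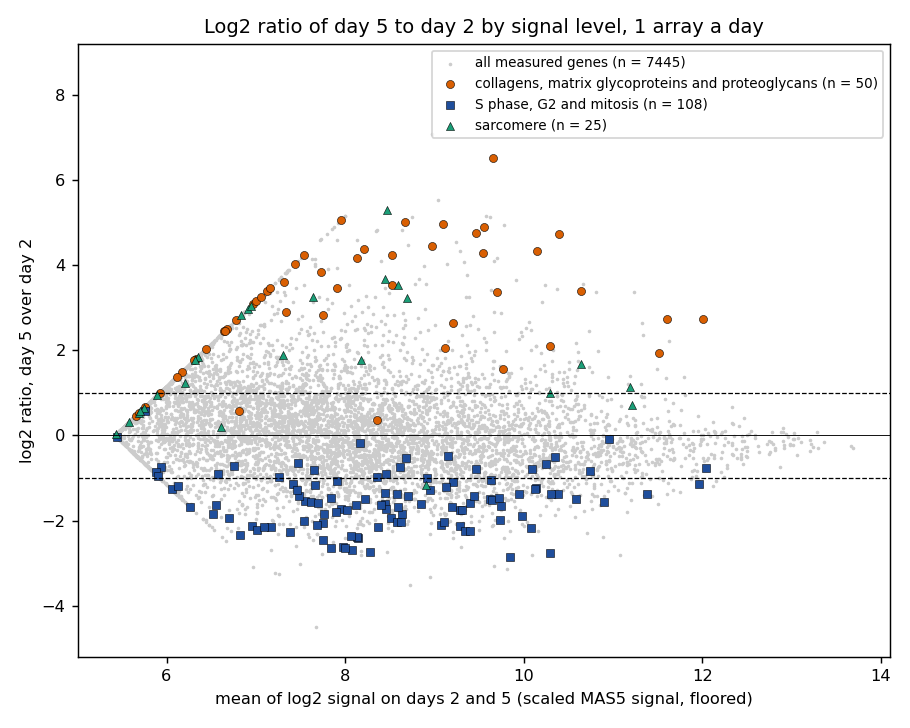
Log2 ratio of day 5 to day 2 (vertical axis) against the mean log2 signal of both days (horizontal axis) for 7445 measured genes, with dashed lines at 2-fold; each point is 1 gene on 1 array a day. Most points of the matrix lists lie above 0 and all but 1 of the cell cycle lists below it, and the oblique edge on the left is the floor.

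How the calls divided into higher and lower depended on the scaling, while no gene called with the common trimmed mean was called the opposite way under another scaling. Higher genes made up 63.4% of the calls with the common trimmed mean, 52.9% after quantile normalization and 23.1% when the arrays were scaled to a common median. The median log2 ratio over all measured genes was 0.16 with the common trimmed mean, -0.01 after quantile normalization and -0.51 with median scaling. Median scaling divides by the level of the low probe sets, and the median of the scaled values was 29.5 on day 2 and 49.1 on day 5. The error that can be had without replicates is the spread between probe sets of 1 gene. Single probe sets lay around their gene mean with an SD of 0.46 on the log2 scale (2013 genes with 2 or more probe sets above the floor on both days), which holds no spread between animals or between labellings. Of 814 called genes with several measured probe sets, 759 had all of them on the side of the call. Ranges given below for the probe sets of a gene are log2 ratios. RNA length can be read from control probe sets at both ends of a transcript: the 3' end of Gapdh was 2.17 times as bright as its 5' end on day 2 and 2.87 times on day 5, and for Actb the values were 1.80 and 2.19. The part of RNA length in the results was not tested.

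**Figure D2:**
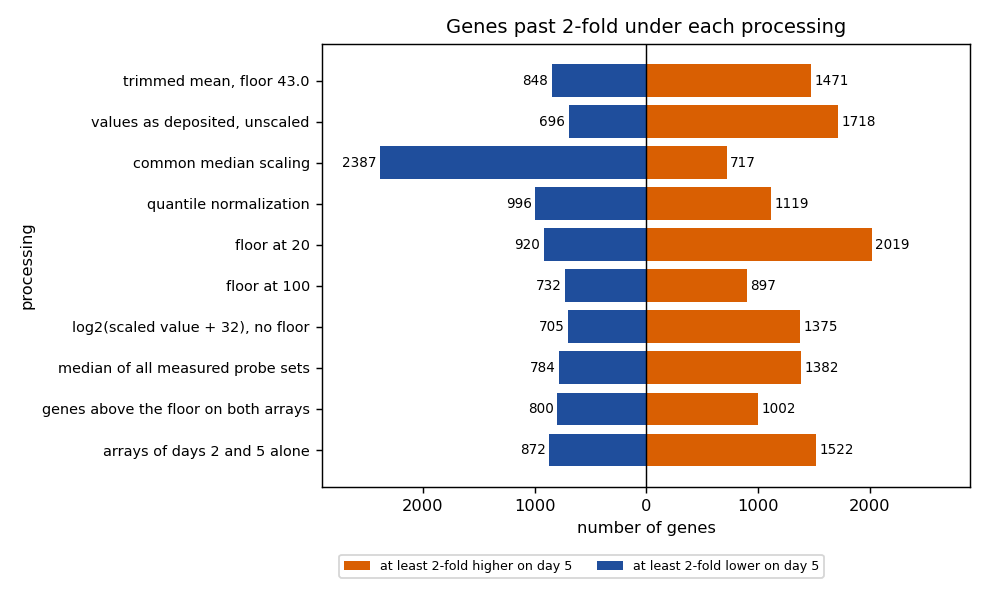
Number of genes at least 2-fold higher (right) and lower (left) on day 5 than on day 2 under each processing, 1 array a day. The count of higher genes runs from 717 with median scaling to 2019 with a floor of 20, and the count of lower genes from 696 with the values as deposited to 2387 with median scaling.

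Genes of cell division were lower on day 5 almost throughout. Of 108 measured genes of the S phase and the G2 and mitosis lists, 85 were at least 2-fold lower and none was higher, against 11.4% of all measured genes lower. In 107 of the 108 the day 5 signal lay below that of day 2. The exception was Foxm1, a transcription factor of mitotic genes, which stood near the floor on both days (44.2 and 66.3), whose probe sets went from -0.52 to 0.59 in log2 ratio, and which is named here after its values were seen. On day 3 the level lay between those of days 2 and 5 for 97 of the 108, and on day 14 it lay below day 5 for 97. In bulk RNA, fewer cells of a type and less RNA per cell cannot be told apart.

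Among 62 measured G2 and mitosis genes 45 were lower (median log2 ratio -1.60). Cdk1, the kinase that drives entry into mitosis, read 2483, 1300.3, 344 and 277 on days 2, 3, 5 and 14 (7.22-fold lower on day 5). Its signal was lower at each later day. Kif2c, a kinesin that takes apart microtubules at the kinetochore, was 6.46-fold lower, and its 2 measured probe sets gave log2 ratios of -2.69 to -1.70. Kif20a, a kinesin of cytokinesis, was 6.29-fold and the kinase Melk 6.21-fold lower. Mki67, which encodes the proliferation marker Ki-67, read 1719.6, 1631, 725 and 737 on days 2, 3, 5 and 14, so its difference (2.37-fold) came between days 3 and 5 and it stayed at that level to day 14.

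Among 46 measured S phase genes 40 were lower (median -1.53). Fen1, the flap endonuclease that trims Okazaki fragments, read 3277, 1723, 482 and 281 on days 2, 3, 5 and 14; it was 6.79-fold lower. Gins1, a subunit of the replicative helicase, was 6.71-fold lower. Cdc6, which licenses replication origins, was 5.51-fold lower and Mcm10, which acts with the helicase, 4.81-fold. These 4 were the largest decreases of the list. Outside the lists, Trip13, an ATPase of the spindle checkpoint, was 8.31-fold lower and Donson, a replication fork protein, 9.49-fold, both among the 10 largest decreases.

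Promoters of cell cycle genes carry short elements that tie their expression to the cycle, among them the CHR element (TTTGAA), the CCAAT box and E2F motifs, here TTTCCCGC and TTTGGCGC. The 250 bases before the start site are shown, 5′ to 3′, for the 2 largest decreases of each list whose promoter is in the RefSeq table (GRCm38.p6), to let the motifs be seen beside the values; capitals mark these motifs on either strand.

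Cdk1 (chr10:69352913-69353162, minus strand): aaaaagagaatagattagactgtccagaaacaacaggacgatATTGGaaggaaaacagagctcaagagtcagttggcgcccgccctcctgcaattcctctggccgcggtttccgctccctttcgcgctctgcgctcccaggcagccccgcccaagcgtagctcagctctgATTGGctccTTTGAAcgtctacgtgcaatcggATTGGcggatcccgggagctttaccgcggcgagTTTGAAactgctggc
Kif2c (chr4:117178773-117179022, minus strand): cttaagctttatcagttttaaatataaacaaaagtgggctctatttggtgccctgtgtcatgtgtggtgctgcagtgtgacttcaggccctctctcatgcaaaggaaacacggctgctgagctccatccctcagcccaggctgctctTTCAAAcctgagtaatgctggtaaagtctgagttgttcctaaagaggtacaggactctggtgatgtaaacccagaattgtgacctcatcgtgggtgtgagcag
Fen1 (chr19:10204394-10204643, minus strand, the first of 2 listed promoters): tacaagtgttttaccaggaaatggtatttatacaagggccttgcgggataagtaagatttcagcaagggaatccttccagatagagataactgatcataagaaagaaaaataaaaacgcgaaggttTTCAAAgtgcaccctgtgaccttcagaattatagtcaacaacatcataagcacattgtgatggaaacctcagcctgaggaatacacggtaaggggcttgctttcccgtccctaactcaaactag
Cdc6 (chr11:98907901-98908150, plus strand): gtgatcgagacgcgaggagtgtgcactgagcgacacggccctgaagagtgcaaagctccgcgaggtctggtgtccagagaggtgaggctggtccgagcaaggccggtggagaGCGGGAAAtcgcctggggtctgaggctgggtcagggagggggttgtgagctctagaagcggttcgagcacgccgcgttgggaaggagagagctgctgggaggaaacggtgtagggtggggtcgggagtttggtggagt

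The Cdk1 window holds TTTGAA beginning 71 and 15 bases before the start site and 3 CCAAT boxes on the opposite strand. Kif2c and Fen1 each hold 1 TTTGAA on the opposite strand, and Cdc6 holds 1 TTTCCCGC on the opposite strand. Over the 38 promoters found for the lower G2 and mitosis genes, 39.5% held TTTGAA, 71.1% CCAAT and 5.26% an E2F motif. Over the 35 promoters of the lower S phase genes, 11.4% held TTTGAA, 60.0% CCAAT and 20% TTTCCCGC or TTTGGCGC. Among all 27025 promoters of the table, 1 a gene, the shares were 16.3% for TTTGAA, 34.5% for CCAAT and 1.35% for the E2F motifs. Whole lists on the array, called or not, had shares near those of their lower members. In this order they were 37.3%, 68.6% and 5.88% for G2 and mitosis, and 12.5%, 57.5% and 17.5% for S phase. Over all genes called lower they were 13.8%, 41.5% and 3.75%. A match of letters describes the window and does not show a site that is used.

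The machinery of growth was lower beside the cell cycle. Ribosome biogenesis had 37 of 43 measured genes lower and 0 higher (median log2 ratio -1.38), against 11.4% of all measured genes lower. Wdr12, a factor of the large ribosomal subunit, read 767, 285, 109.5 and 80.4 on days 2, 3, 5 and 14; 1 of its 2 measured probe sets gave a log2 ratio of -0.94. Nolc1, a nucleolar chaperone of small nucleolar RNPs, was 4.64-fold lower, with probe sets from -2.22 to -1.12, Nop16 4.48-fold and Rrp12, which serves export and processing of pre-ribosomes, at least 4.66-fold. Of 23 genes of mitochondrial chaperones and import 16 were lower and none higher (median -1.20), against the same 11.4%. The list also holds some mitochondrial ribosomal proteins. Its largest decreases were the mitochondrial ribosomal proteins Mrps18b (4.01-fold) and Mrpl12 (3.16-fold), the import chaperone Timm8a1 (3.66-fold) and the outer membrane receptor Tomm70a (3.39-fold, probe sets from -1.76 to -0.19).

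Of 29 measured genes of amino acid supply and tRNA charging 13 were lower and 1 higher (median -0.90), against 11.4% of all measured genes lower. Under median scaling 24 were lower, as were 2387 of all 7494 genes measured there. Mthfd2, the mitochondrial folate enzyme, read 1559, 852, 254 and 159 on days 2, 3, 5 and 14 (6.15-fold lower). Psat1 of serine synthesis was 5.30-fold lower, Asns, asparagine synthetase, 4.17-fold and Shmt2, the mitochondrial serine hydroxymethyltransferase, 3.72-fold, with probe sets from -1.90 to -0.88. The higher member was Ddit3, the stress transcription factor CHOP, at least 3.19-fold.

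Energy metabolism differed less. Of 58 oxidative phosphorylation genes 4 were lower and 1 higher, a share under that of all genes, with a median of -0.34. The lower members were Atp5g1 (2.88-fold), Sdhd (2.56-fold), Cycs (2.17-fold) and Ndufa5 (2.03-fold), and Ndufv3 was 2.20-fold higher. Of 31 genes of the tricarboxylic acid cycle and fatty acid oxidation 2 were lower and 1 higher. Over all measured genes 11.4% were lower and 19.8% higher. Idh3a (2.72-fold) and Mdh1 (2.05-fold, with its other probe sets near 0) were lower. Acadvl, which starts the oxidation of long fatty acids, was 2.23-fold higher. In glycolysis 3 of 17 were lower (17.6%) and 2 higher (11.8%), against 11.4% and 19.8% of all measured genes. Eno3, muscle enolase, read 4364, 4392, 829 and 148 on days 2, 3, 5 and 14 and was 5.26-fold lower, and Pgam1 and Pgk1 of lower glycolysis were 2.52-fold and 2.11-fold lower. Hk1, a hexokinase, was 3.45-fold higher and Pfkfb3, which makes an activator of glycolysis, 2.03-fold.

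Growth arrest genes were mostly higher: 16 of 27 measured were called higher and 1 lower (median 1.19), against 19.8% of all measured genes higher. Under median scaling 9 remained past 2-fold higher, as did 717 of all 7494 genes measured there. Cdkn1c, which encodes the cyclin-dependent kinase inhibitor p57, read 133, 1683, 4667 and 1969.5 on days 2, 3, 5 and 14. At 35.2-fold it was the largest difference of the list and peaked on day 5. Btg2, an antiproliferative gene, was 9.83-fold higher, and of the Gadd45 stress genes Gadd45a was at least 5.26-fold and Gadd45g 4.88-fold higher. Cdkn1b, which encodes p27, was 2.47-fold higher by 1 probe set and at -0.07 by the other, and its call was lost under 5 alternatives. Cdkn1a, which encodes p21, was not called and read 2363, 3751, 1440.2 and 2886 on days 2, 3, 5 and 14: the CDK inhibitors did not move as a group. Rbl1, which encodes the retinoblastoma relative p107, was 2.10-fold lower.

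The D cyclins, partners of CDK4 that push cells through G1, did not share 1 direction. Ccnd1 read 2673, 801, 303 and 1324 on days 2, 3, 5 and 14, the lowest level of the 4 arrays on day 5 (8.83-fold below day 2, with 3 probe sets from -3.14 to -1.70). Ccnd3, the D cyclin of differentiating muscle, was 3.00-fold higher, at 330.1 on day 2 and 990.3 on day 5. Ccnd2 was 2.32-fold higher, at 51.2 and 119, but its 4 measured probe sets ran from 0.56 to 1.21 and its call was lost under 5 alternatives, median scaling and quantile normalization among them. The call of Ccnd3 was lost under median scaling.

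**Figure D3:**
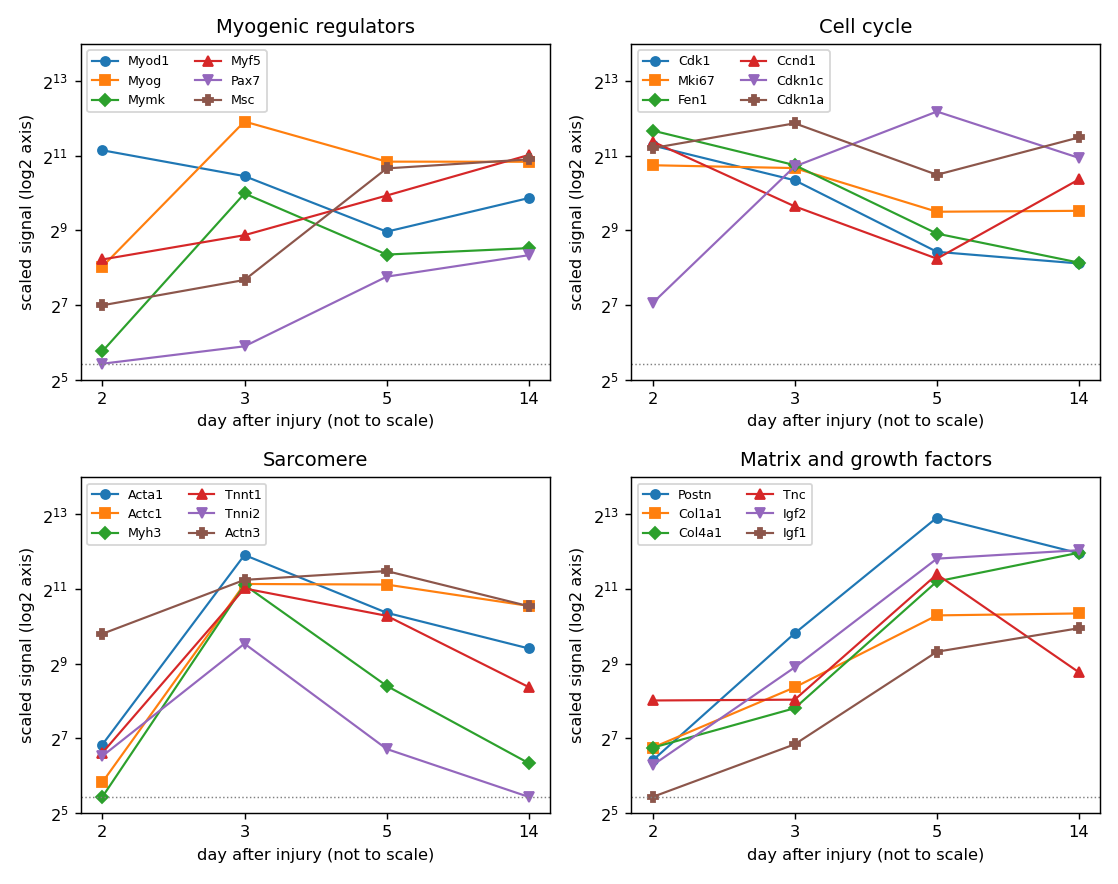
Scaled signal on a log2 axis for 6 genes in each of 4 groups on days 2, 3, 5 and 14, 1 array a day; the dotted line is the floor of 43.0, days are evenly spaced and not to scale. Cdk1, Fen1 and Ccnd1 lie lower on day 5 than on day 2, Cdkn1c and the matrix genes lie higher, and several sarcomere genes are highest on day 3.

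The myogenic transcription factors exchanged places between the days. Myod1, the regulator of proliferating and committed myoblasts, read 2272, 1405, 500.2 and 935 on days 2, 3, 5 and 14 and was 4.54-fold lower on day 5. Myog, which drives terminal differentiation, read 261, 3876, 1839 and 1835 on days 2, 3, 5 and 14 and was 7.04-fold higher, although its day 5 level was under that of day 3. Mymk, the fusion protein myomaker, took the same course, with 54.0, 1017, 327 and 368 on days 2, 3, 5 and 14 (6.05-fold). So the late regulators stood above day 2 on day 5, but read highest on the day 3 array, which is from the other record set.

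The early regulators were higher on day 5 as well. Pax7, the transcription factor of satellite cells, read below the floor, 59.4, 217 and 323 on days 2, 3, 5 and 14, at least 5.05-fold higher on day 5. Myf5 read 298, 469, 979 and 2081 on days 2, 3, 5 and 14 and was 3.28-fold higher. Msc, a bHLH repressor that competes with Myod1, was 12.7-fold higher, from 127 to 1622. Neither Pax7 nor Myf5 reached its highest level before day 14. Myf6, a regulator of mature fibres, lay below the floor on all 4 arrays. Over the whole list 8 of 15 measured genes were higher and 2 lower (median 1.28), against 19.8% and 11.4% of all measured genes. The lower ones were Myod1 and Id1, a target of BMP signalling (2.24-fold lower). These levels also check the label: Myod1, Myf5, Cdh15, the adhesion molecule M-cadherin (350.0, 1606, 1884 and 1653 on days 2, 3, 5 and 14), and Des, the muscle intermediate filament desmin (888 on day 2 and 1787 on day 5), were above the floor on both arrays, while Pax7 was not above it on day 2.

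Contractile genes were higher on day 5 than on day 2, but mostly below their level on day 3. Sarcomere genes were higher in 16 of 25 measured and lower in 1, at a median log2 ratio of 1.68, against 19.8% of all measured genes higher, and in 11 of the 25 the ratio had 1 side at the floor. Of 29 sarcomere genes above the floor on day 2, 3 or 5, 23 had a higher signal on day 3 than on day 5. Actc1, alpha-actin of the heart and of muscle under formation, read 56.4, 2251, 2227 and 1497 on days 2, 3, 5 and 14 and had the largest ratio of the list, 39.5-fold. Acta1, the alpha-actin of adult skeletal muscle, read 114, 3858, 1318 and 679 on days 2, 3, 5 and 14 (11.6-fold). Actc1 kept its day 3 level on day 5, and Acta1 did not.

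Tnnt1, the slow troponin T, was 12.8-fold higher, at 97.5, 2071, 1246 and 331 on days 2, 3, 5 and 14. Mylpf, a myosin light chain of fast fibres, was 9.62-fold higher, at 64.5, 2896, 620.3 and 127 on days 2, 3, 5 and 14. Myh3, the embryonic myosin heavy chain, was at least 7.89-fold higher and read below the floor, 2210.1, 339 and 80.4 on days 2, 3, 5 and 14; probes of myosin heavy chains can cross-react between near-identical copies. Each of these 3 was lowest on day 2 and highest on day 3. Ankrd1, a stretch-responsive protein of the sarcomere, was the lower member (2.24-fold). Of the 14 promoters found for the higher sarcomere genes, 50.0% held the E-box CAGCTG, against 12.8% of all promoters of the table. Over the 31 promoters of the whole sarcomere list, called or not, 32.3% held it. None of the 14 held the exact form of the SRF box that was searched, which 0.0740% of all promoters held.

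The membrane systems that couple excitation to contraction were mixed. Of 12 measured genes of the calcium store and excitation 3 were higher, a share near the 19.8% of all measured genes: Atp2a1, the fast calcium pump of the sarcoplasmic reticulum (9.58-fold, from 67.4 to 646), Ryr1, its calcium release channel (at least 5.74-fold), and Cacng1, a subunit of the L-type calcium channel (3.34-fold). The lower member was Kcnn4, a calcium-activated potassium channel that is also found in proliferating cells. It read 1427, 1055, 125 and below the floor on days 2, 3, 5 and 14 and was 11.4-fold lower, the second largest decrease of all measured genes. Of 13 genes of the membrane and dystrophin complex 5 were higher and 1 lower, against 19.8% and 11.4% of all measured genes. In 4 of the 13 ratios 1 day was at the floor. Among the higher genes were the sarcoglycans Sgca (at least 7.82-fold) and Sgce (6.59-fold). Dag1, dystroglycan (2.54-fold, probe sets from 1.34 to 3.11), and Ckm, muscle creatine kinase (at least 3.30-fold), were higher too. Cavin4, a caveolar protein of muscle, was 5.18-fold lower after 917 on day 3. Among genes above the floor on both arrays the median ratio of both lists was below 0, and that of the membrane list was below 0 under median scaling too.

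Quiescence markers were higher on day 5 for most genes but not for all of the defining ones. Of 21 measured, 13 were higher and 1 lower (median 2.34), against 19.8% of all measured genes higher, and of 23 above the floor on any array 18 had their highest level on day 14. In 7 of the 21 ratios 1 day was at the floor, and among members above it on both arrays 8 were higher. Gpx3, a secreted glutathione peroxidase, read 125, 511, 2942 and 5607 on days 2, 3, 5 and 14 (23.5-fold). Calcr, the calcitonin receptor, was near the floor on day 5 and was not called; it read below the floor, below the floor, 49.5 and 615 on days 2, 3, 5 and 14. Cd34, a sialomucin on the surface of resting satellite cells, was 3.48-fold lower, at 169, below the floor, 48.6 and 526 on days 2, 3, 5 and 14. Calcr and Cd34 thus had their highest level on day 14 and not on day 5.

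Notch signalling holds satellite cells back from differentiation, and Notch3 and Heyl stand in the quiescence list too. Notch3 read 55.3, 209, 824 and 1165 on days 2, 3, 5 and 14 (14.9-fold, probe sets from 2.13 to 3.90) and the target Heyl below the floor, 208, 781 and 1169 on days 2, 3, 5 and 14 (at least 18.2-fold, probe sets from 1.34 to 4.18). Notch1 was 3.16-fold higher and Numbl, a relative of the Notch inhibitor Numb, at least 3.03-fold. In the list 7 of 16 measured genes were higher, against 19.8% of all, and none lower (median 0.73). Notch3 is also expressed by mural cells, whose markers are described below.

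**Figure D4:**
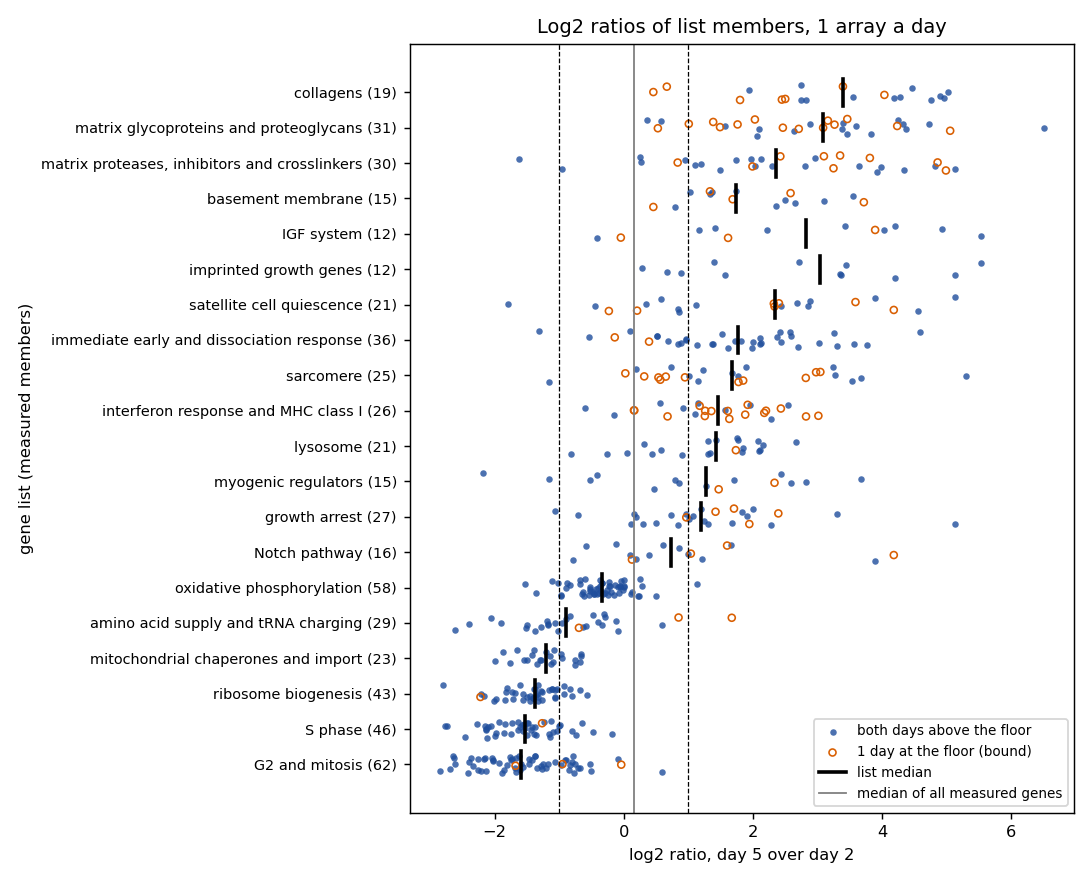
Log2 ratio of day 5 to day 2 for the measured members of 20 gene lists, 1 point a gene and 1 array a day, with the list median as a black bar, the median of all measured genes as a grey line and 2-fold as dashed lines; open points have 1 day at the floor. Medians run from -1.60 for G2 and mitosis to 3.40 for the collagens.

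Extracellular matrix genes were among those with the largest increases. Over the 4 matrix lists 82 of 95 measured genes were higher on day 5 and 1 lower, against 19.8% of all measured genes higher. Their median log2 ratio was 2.71. Day 2 was at the floor for 7 of 19 collagens, 5 of 15 basement membrane genes and 14 of 31 glycoproteins and proteoglycans. It was also there for 9 of 30 proteases, inhibitors and crosslinkers. Genes at the floor on day 2 could not be called lower. The matrix genes made up 28.5% of all genes that were at least 8-fold higher, and 95 of all 7445 measured genes. The lists were chosen with earlier results of these data known. The only lower member was Pcolce2, which helps to mature procollagen (3.09-fold).

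Collagens were higher in 17 of 19 (median 3.40). Col18a1, the basement membrane collagen that releases endostatin, read 71.6, 805, 2324 and 902 on days 2, 3, 5 and 14 (32.5-fold). Col6a2 and Col6a3, chains of the microfibrillar collagen VI around muscle fibres, were 31.2-fold and 27.2-fold higher, and Col5a1, which starts fibril assembly, 29.9-fold (probe sets from 2.84 to 5.11). Col1a1, the main fibrillar collagen chain, read 107, 329.7, 1256 and 1301 on days 2, 3, 5 and 14; its 2 probe sets gave log2 ratios from 3.55 to 4.90. Every collagen named here was higher on day 3 than on day 2 and higher still on day 5.

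Of 15 measured basement membrane genes 13 were higher (median 1.75). Lama2, the laminin chain of the muscle basement membrane, read 139.9, 224, 1644 and 2428 on days 2, 3, 5 and 14 (11.8-fold). Fbln2, fibulin-2, was at least 13.2-fold higher with a peak on day 5, Nid1, nidogen-1, 8.62-fold (probe sets from 1.79 to 3.11) and Sparc, a collagen-binding glycoprotein, 6.28-fold. Matrix glycoproteins and proteoglycans were higher in 28 of 31 (median 3.09), and in 15 of 17 when only genes above the floor on both arrays count. Postn, periostin, read 84.6, 900.4, 7737 and 3983 on days 2, 3, 5 and 14 and was 91.4-fold higher, the largest ratio of a gene above the floor on both days. Bgn, biglycan, read 262, 1089, 6969 and 5656 on days 2, 3, 5 and 14 (26.6-fold, 3 probe sets from 4.61 to 4.80). Dpt, dermatopontin, was at least 33.3-fold higher on day 5 and higher again on day 14 (5877), and Emilin1, an elastic fibre protein, was 20.8-fold (probe sets from 2.43 to 4.38).

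Matrix proteases, their inhibitors and collagen crosslinkers were higher in 24 of 30 (median 2.36). Mmp2, gelatinase A, read 72.8, 307, 2542 and 4138 on days 2, 3, 5 and 14 (34.9-fold), and Mmp14, the membrane protease that activates it, 75.0, 259.9, 2119.6 and 834 on days 2, 3, 5 and 14 (28.2-fold, probe sets from 2.83 to 4.82). Htra3, a secreted serine protease, was at least 31.8-fold higher by 1 measured probe set and at a log2 ratio of 1.26 by the other. Fap, a surface protease of activated fibroblasts, was at least 29.1-fold higher. Htra3 and Fap were both at the floor on day 2. Of integrins, the matrix receptors, 2 of 6 measured were higher, against 19.8% of all measured genes. They were Itgb5 (15.8-fold, probe sets from 2.94 to 3.98) and Itgav (3.22-fold), which pair as a vitronectin receptor.

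Markers of other cell types were also higher on day 5. Of 21 fibroblast and fibro-adipogenic markers on the array 15 were measured, 14 higher and none lower (median 2.81), against 19.8% of all measured genes. The 21 had a summed signal of 2302 on day 2 and 14341 on day 5, with Gsn alone at 195 and 3542. All 7 markers above the floor on both arrays were higher. Many of these markers are matrix genes counted above, Dpt, Fap and Lum (11-fold) among them. Of the defining markers Pdgfra read below the floor on day 2 and 105 on day 5, Cd248 below the floor and 88.9, and Pi16, Clec3b, Dpp4, Penk, Twist2 and Osr1 were below the floor on both days. Gsn, gelsolin, which muscle cells express too, was 18.1-fold higher, with probe sets from 0.37 to 4.18.

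Mural and smooth muscle markers had 8 of 9 measured members higher (median 2.90), against 19.8% of all measured genes. Of the 9, 6 were at the floor on day 2 and so could not be called lower. The summed signal of the list was 1821 on day 2 and 13161 on day 5, with Acta2 alone at 750.0 and 7744. Tagln, the actin-binding protein transgelin, read below the floor, 122, 1533 and 1294 on days 2, 3, 5 and 14 (at least 35.7-fold), and Acta2, smooth muscle alpha-actin, 750.0, 3596, 7744 and 6176 on days 2, 3, 5 and 14 (10.3-fold); both are also made by young muscle cells. Rgs5, a pericyte gene, was at least 13.2-fold higher by 1 probe set while others ranged down to a log2 ratio of 0.07, and Pdgfrb, a receptor of pericytes, was at least 7.49-fold higher (probe sets from 1.75 to 2.90). Des stands in this list too, as a gene of all muscle. Abcc9, Myh11, Cnn1 and Lmod1 were below the floor on both days.

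Among macrophage and myeloid markers 17 were measured, at a median of 1.37. Of these 13 were higher and 0 lower, against 19.8% of all measured genes higher. In 13 of the 17 the floor was reached on 1 day. Their summed signal over 24 probe sets was 428 on day 2 and 4622 on day 5, with the probe set of Lyz1 alone at 88.3 and 1980.0. With a floor of 100, 5 members were called. Only 4 members were above the floor on both arrays, and all 4 were higher, against 1002 of all 6064 such genes. Lyz1, lysozyme, read 88.3, 510.3, 1980.0 and 1438 on days 2, 3, 5 and 14 (22.4-fold, probe sets from 2.31 to 4.49), its near-identical copy Lyz2, which probes may not tell apart, was 8.76-fold higher, Ctss, the lysosomal protease cathepsin S, was 10.3-fold and Csf1r, the macrophage growth factor receptor, at least 7.35-fold higher (probe sets from 0.67 to 2.88). Ptprc, the pan-leukocyte antigen CD45, read below the floor, below the floor, 59.7 and 54.5 on days 2, 3, 5 and 14 and was not called. Of the MHC class II list 3 of 4 measured genes were higher, and all 4 were at the floor on day 2, so none could be called lower. H2-Aa was at 390.1 on day 5 after a level under the floor (at least 9.08-fold), Cd74 at 121 and H2-Eb1 at 112 on day 5.

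Endothelial markers had 5 of 16 measured and 2 higher, with 1 day at the floor for 4 of the 5. Over all measured genes 19.8% were higher. The 2 were Eng, endoglin (at least 2.96-fold, probe sets from 0.35 to 1.57), and Fabp4, a lipid carrier of endothelium and adipocytes (2.01-fold, a call lost under 4 alternatives). Pecam1, Cdh5, Kdr and Vwf were below the floor on both days. No member of the neutrophil (9 on the array), lymphocyte (10) or erythroid (4) lists was above the floor on any of the 4 arrays. The Schwann cell and adipocyte lists had 2 measured members each; Pmp22, also made by fibroblasts, was 5.39-fold higher and Sox10, Mbp, Adipoq and Pparg were below the floor on days 2 and 5. The part of these cell types in the matrix, growth factor, lysosome, interferon and MHC results was not tested.

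**Figure D5:**
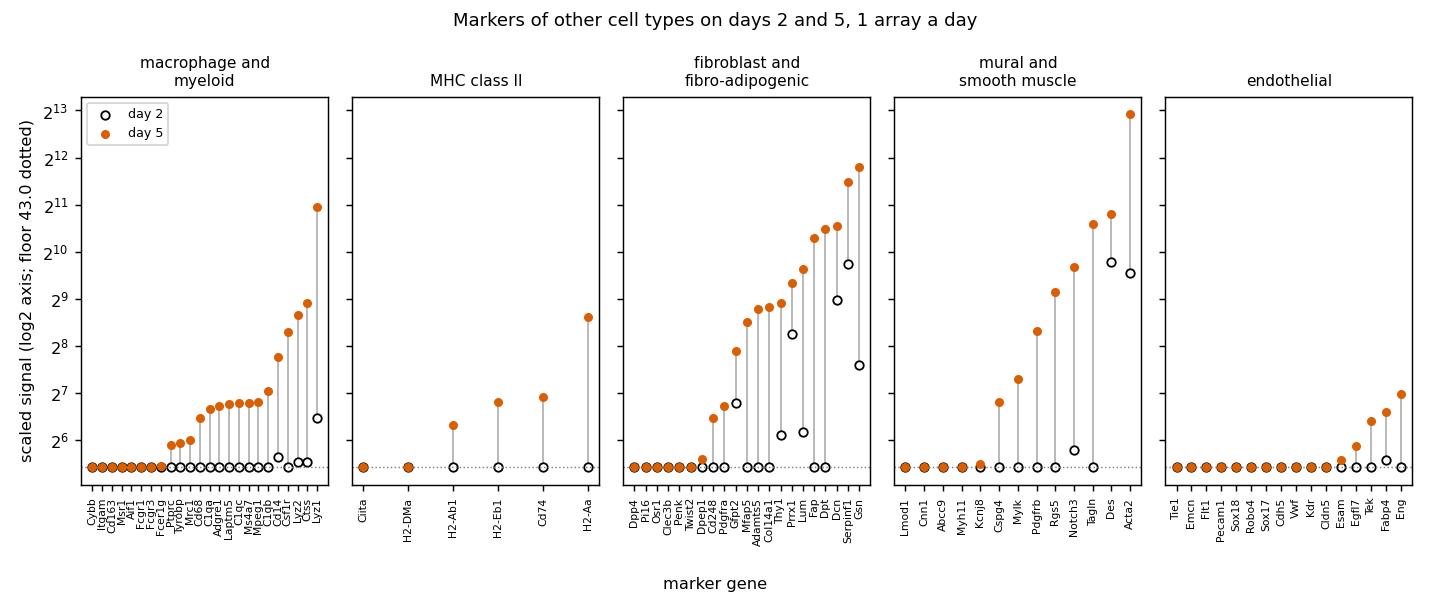
Scaled signal (log2 axis, values under the floor of 43.0 drawn at it) of each marker gene on day 2 (open) and day 5 (filled), 1 array a day, for 5 lists of other cell types. Macrophage, fibroblast and mural markers lie higher on day 5, while most endothelial markers sit at the floor on both days.

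Growth factor genes were higher beside the matrix. Of 12 measured genes of the insulin-like growth factor system, which drives myoblast growth and differentiation, 10 were higher and none lower (median 2.82). Over all measured genes 19.8% were higher and 11.4% lower. The ligand Igf2 read 77.4, 478, 3605 and 4220.0 on days 2, 3, 5 and 14 (46.6-fold), and the ligand Igf1 below the floor, 114, 639 and 990.2 on days 2, 3, 5 and 14 (at least 14.9-fold, 3 probe sets from 2.11 to 3.89). Both ligands were still higher on day 14. Igf2r, the receptor that clears IGF2, was 18.3-fold higher (probe sets from 2.59 to 4.20). Of the binding proteins, Igfbp5 was 30.6-fold higher (probe sets from 2.28 to 4.94) and Igfbp7 16.4-fold. Imprinted growth genes were higher in 9 of 12 (median 3.03) and lower in none. Igf2, Igf2r and Cdkn1c stand in that list too, and Mest, a marker of growing mesoderm, was 10.9-fold higher, at 399.9, 2188, 4368 and 1564 on days 2, 3, 5 and 14.

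Pdgfc, a platelet-derived growth factor, read below the floor, 82.8, 1455 and 801 on days 2, 3, 5 and 14 and was at least 33.9-fold higher, 1 of 5 higher genes among 10 measured PDGF and VEGF genes. Nrp1, a co-receptor, was 3.50-fold higher with probe sets from 0.47 to 1.81, and Vegfc 2.61-fold, a call lost under 4 alternatives. Of 29 TGF-beta and BMP signalling genes 13 were higher and 1 lower (median 0.67). Both list counts stand against 19.8% of all measured genes higher and 11.4% lower. The floor set 15 of the TGF-beta and BMP ratios, and 6 members were higher among those above it on both days. The ligands Tgfb3 and Tgfb2 were at least 14.5-fold and at least 9.52-fold higher (probe sets of Tgfb2 from 2.01 to 3.25), Ltbp3, which stores TGF-beta in the matrix, 17.0-fold, and Fstl1, a follistatin relative, 17.3-fold, at 196, 496, 3379.6 and 2937 on days 2, 3, 5 and 14. The lower gene was Id1.

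Of 7 measured FGF and HGF signalling genes 5 were higher and none lower, against 19.8% of all measured genes higher. Fgfr4, the FGF receptor of myoblasts, read 315, 958, 2329 and 2769.7 on days 2, 3, 5 and 14 (7.40-fold), Spry1, a feedback inhibitor needed for return to quiescence, 118, 241, 856 and 2334 on days 2, 3, 5 and 14 (7.25-fold), Fgfr1 was 4.81-fold (probe sets from 1.22 to 2.27) and Dusp6, an ERK phosphatase, at least 4.28-fold higher. Receptor and feedback genes were thus both among the 5 higher members. Of 16 list genes on the array, 9 were at the floor on both days. The list median was 2.10, but 0.51 under median scaling and 0.45 with a floor of 20. Of 14 Wnt pathway genes 8 were higher and none lower (median 1.13), against 19.8% of all measured genes higher. In 7 of the 14 ratios 1 day was at the floor. The higher genes included Ccn4, a Wnt-induced matricellular protein (7.42-fold), the receptors Fzd2 (6.17-fold) and Fzd4 (5.43-fold) and the co-receptor Lrp6 (3.61-fold).

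Immediate early and dissociation response genes rise within minutes of growth factor or stress signals and also when tissue is taken apart. Of 36 measured members 24 were higher and 1 lower (median 1.77), against 19.8% of all measured genes higher. Egr1 read 469.9, 2398, 5576 and 9858 on days 2, 3, 5 and 14 (11.9-fold), Egr2, its relative, 57.4, 164, 1382 and 2532 on days 2, 3, 5 and 14 (24.1-fold), and Socs3, a feedback inhibitor of cytokine signals, 179, 461, 2442 and 3208 on days 2, 3, 5 and 14 (13.6-fold). All 3 were higher again on day 14, where 33 of the 36 had their highest level. Fosl1, a partner of Jun in proliferating cells, was 2.50-fold lower.

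Interferon response and MHC class I genes were higher in 19 of 26 and lower in none (median 1.46), against 19.8% of all measured genes higher. But 16 of the ratios are bounds set by the floor, and with a floor of 100 the higher members numbered 7. Of the 10 members above the floor on both arrays, 6 were higher. Ifih1, an RNA sensor, was at least 8.08-fold higher, the GTPase Gbp2 at least 7.08-fold, Tapbp, which loads peptides on MHC class I, 5.83-fold (probe sets from 0.73 to 2.54) and Iigp1, an immunity-related GTPase, at least 5.40-fold (probe sets from 0.65 to 2.43). On day 5 Ifih1 read 347 and Gbp2 304. Lysosome genes were higher in 14 of 21 and lower in none (median 1.43), against the same 19.8%, with the floor touching 1 of the ratios. Scarb2, a lysosomal membrane receptor, was 6.36-fold higher, at 424, 726, 2699.8 and 2581 on days 2, 3, 5 and 14, Lgmn, legumain, 4.45-fold, Hexa, a hexosaminidase, 4.34-fold and Lamp2 4.29-fold (probe sets from 0.61 to 2.10 for Lamp2 and from 1.51 to 2.67 for Scarb2).

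The largest single ratios included genes not yet described. Islr, which encodes the secreted protein Meflin, had the largest increase, at least 136-fold; it read below the floor, 325, 5856 and 2827 on days 2, 3, 5 and 14. Capn6, a calpain-like protein without protease activity, read 127, 738, 4566 and 1608 on days 2, 3, 5 and 14 (35.8-fold, probe sets from 4.49 to 5.16), and C1qtnf3, a secreted C1q-like protein, was at least 35.6-fold higher. Each of these 3 was highest on day 5. Nrcam, a neural adhesion molecule, had the largest decrease, at least 22.7-fold, at 975, 435, below the floor and below the floor on days 2, 3, 5 and 14. Hmga2, a chromatin protein of proliferating and fetal cells, read 1569, 559, 157 and below the floor on days 2, 3, 5 and 14, a log2 ratio of -3.32, with 3 probe sets from -3.32 to -1.55. Krt18, a simple keratin, was 9.33-fold lower, Mtm1, the phosphoinositide phosphatase myotubularin, at least 8.5-fold, with measured probe sets from -3.09 to -0.81, and Msmo1, a sterol oxidase of cholesterol synthesis, 8.07-fold. Nrcam and Mtm1 lay below the floor on days 5 and 14, and Hmga2 and Krt18 on day 14. Msmo1 was lowest on day 5, at 63.5, and read 238 on day 14.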

How the data were processed

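Myogenic cells were profiled on 4 Affymetrix 430A arrays, 1 for each of days 2, 3, 5 and 14 after cardiotoxin. The authors deposited MAS5 intensity values on a linear scale (MAS5 is named in the submitters' processing notes), with the small-sample amplification of the RNA given per the labels' protocols; the scaling target was not given in the sources used. Amplification shortens cDNA, so 5' probe sets read lower. The labels place days 2 and 5 in the same set of deposited records, and days 3 and 14 in another. The mean scaled signal of the 18S ribosomal RNA controls was 2695, 2651, 2818 and 1098 on days 2, 3, 5 and 14.

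Each array was scaled to a common 2% trimmed mean (Python 3.11.15, numpy 2.4.6, pandas 2.3.3; figures with matplotlib 3.10.9), signals under the pooled median of 43.0 were raised to it, and ratios were taken as log2. Of 22690 probe sets, 20393 have 1 gene symbol in the platform annotation, 691 have several and 1606 are unnamed here; the 20393 give 12394 genes, each read by the probe set of highest mean log2 signal. The gene identifiers of 20364 of these probe sets are in the RefSeq table. With 1 array a day there was no test; a call is a ratio of 2-fold or more, and the code was tested on simulated data. Intensities of different genes are not compared as levels, and a single array limits the precision of every value.

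Named are the 10 largest changes each way, up to 4 members of each list and direction by size, and 20 genes named whatever their values; where probe sets differed by more than 1 in log2 ratio the range is given, and a few markers were added to check the label. The members and lists were chosen with earlier results of these data known. There were 34 gene lists and 10 lists of markers, and 9 alternatives were planned; scaling days 2 and 5 alone was added after seeing the data. Promoter sequences are from RefSeq (GRCm38.p6).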

Additional observations from a re-analysis of the deposited data

How the results depend on the processing

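With 1 array a day the results are limited to ratios between single arrays, so the spread between animals is unknown. No paired analysis was possible because no day has a replicate. Under median scaling 717 genes were higher and 2387 lower, with 24 lower members for amino acid supply and 9 higher for growth arrest. A floor of 100 left 897 higher genes, 7 interferon and 5 macrophage members. A call at 3-fold gave 702 higher and 265 lower genes. Keeping only genes above the floor on both arrays left 15 higher matrix glycoproteins, 8 quiescence and 7 fibroblast genes. It left 6 higher interferon, 6 TGF-beta and BMP and 4 macrophage genes. This setting tests fewer genes, 6064, of which 1002 were higher. All 7 fibroblast and all 4 macrophage members that it tests were higher. For the 19 lists with at least 10 calls in 1 direction, 161 of 171 counts under the alternatives were within 1.5 times the reported ones. Counts of the smaller lists were not compared in this way. Of 1521 values of 174 named genes under the alternatives, 1440 kept their direction and side of 2-fold, 76 no longer passed it, 4 newly passed it and 1 reversed. That was Mdh1, whose log2 ratio was -1.04 by its brightest probe set and 0.0023 by the median of all; the other probe sets were the cause by construction. The median ratio turned negative under median scaling for the synapse, membrane, G1 cyclin, integrin and unfolded protein lists, under quantile normalization for G1 cyclins, with a floor of 100 for chemokines, and among genes above the floor on both arrays for the calcium store, membrane and chemokine lists. Signals near the floor limit the smaller lists most.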

Other observations

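Cholesterol synthesis genes were lower on day 5 for 5 of 19 measured members and higher for 2 (median log2 ratio -0.12), against 11.4% of all measured genes lower and 19.8% higher. Beside Msmo1, the isomerase Idi1 read 336, 398, 119 and 327 on days 2, 3, 5 and 14 (2.84-fold lower), the desaturase Sc5d was 2.62-fold lower and Sqle, squalene epoxidase, 2.39-fold. The master regulator Srebf2 was 2.02-fold higher and Dhcr7, a late enzyme, at least 2.04-fold, calls that were lost under 4 and 3 alternatives. Idi1, Sc5d, Sqle and Msmo1 each had their lowest level of the 4 arrays on day 5. Among the genes of the unfolded protein response and secretion 6 of 23 were higher and none lower, a share of higher genes near the 19.8% of all measured genes. Kdelr3, which returns chaperones to the endoplasmic reticulum, read 105, 261, 1163 and 680.0 on days 2, 3, 5 and 14 (11.1-fold), Dnajb9, a co-chaperone, was 4.05-fold and Pdia4, a disulfide isomerase, 3.02-fold higher. This list shares Ddit3 with the amino acid list.

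Chemokines and cytokines were called in both directions, 5 of 20 measured higher and 4 lower, near the shares over all genes (19.8% and 11.4%), with 11 ratios having 1 side at the floor. Cxcl12, the ligand of Cxcr4, read 113, 163, 540.2 and 386 on days 2, 3, 5 and 14 (4.79-fold, probe sets from 1.13 to 2.26), Cxcl10, an interferon-induced chemokine, was at least 5.11-fold higher, Il6 2.94-fold and Ccl7 2.35-fold, the last a call lost under 4 alternatives. Lower on day 5 were Csf1, the macrophage growth factor (2.52-fold), Il33 (2.30-fold), Cxcl5 (at least 2.21-fold) and Cxcl2 (2.07-fold). Cxcl2 was lowest on day 3, at 152, against 949.6 on day 2 and 458 on day 5. Of the acetylcholine receptor and synapse list 3 of 9 were higher, against 19.8% of all, and none lower: Agrn, which clusters the receptor (5.68-fold), Chrng, its fetal subunit (3.57-fold, at 107, 688, 383 and 71.8 on days 2, 3, 5 and 14), and Utrn, utrophin (2.15-fold).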
